A study of Mus musculus with 16 samples.

Results

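The liver X receptors (LXR) and a set of genes grouped as LXR targets and sterol efflux were followed by RNA-seq. The cells were cultured mouse brain microvascular endothelial cells (mBMEC). The 10 genes, chosen by name, are the receptors Nr1h2 (LXRβ) and Nr1h3 (LXRα) with Abca1, Abcg1, Mylip, Pltp, Apoe, Scarb1, Lpcat3 and Abca9, out of 54193 annotated genes over which counts were summed, 27228 of which had any count. All 10 passed the filter on low counts, which left 14838 genes for testing. The cells came from Cdh5 (PAC)-CreERT2/Pdcd10 fl/fl mice aged 8 to 10 weeks, in which an endothelial promoter drives an inducible Cre and Pdcd10 (Ccm3), a gene mutated in cerebral cavernous malformations, is floxed. The 6 groups were WT (3 libraries, no 4-OHT), KO (3 libraries, after 4-OHT), and each genotype after 24 h with 10 µM propranolol (WT+P, 2 libraries; KO+P, 3) or 100 nM rapamycin (WT+R, 2 libraries; KO+R, 3). Both genotypes carried the floxed allele and the Cre, and each culture pooled the brains of several animals. KO cells had all received 4-OHT and WT cells had not, so loss of Pdcd10 and exposure to 4-OHT cannot be told apart.

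LXRs are nuclear receptors that bind oxysterols and, as partners of retinoid X receptors, switch on genes that lower the cholesterol of the cell. ABCA1 and ABCG1 pump cholesterol to lipoprotein acceptors, apolipoprotein E and phospholipid transfer protein (PLTP) carry and remodel lipoproteins, and SR-BI, the product of Scarb1, exchanges cholesterol with high-density lipoprotein. MYLIP (IDOL) is a ubiquitin ligase that limits lipoprotein uptake and LPCAT3 builds polyunsaturated phospholipids. In the brain, where cholesterol is made locally, the endothelium of the blood-brain barrier expresses several of these genes. Propranolol blocks β-adrenergic receptors, and rapamycin inhibits mTORC1.

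LXRs are known to bind a pair of hexamers 4 bases apart, here searched as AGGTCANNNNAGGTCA on both strands of the 250 bases before the start of the transcript that received most of each gene's counts (GRCm39). No member held it without a mismatch. The best matches were in Abca1 and Lpcat3, with 3 mismatches each, and the other 8 had 4 to 6. For 21770 protein-coding genes the transcript marked canonical in the annotation was searched instead. Of these, 18.0% held a match with at most 3 mismatches (16.0% among tested genes), so 2 of 10 lies close to that share. The limit of 3 equals the best match among the members. With at most 2 mismatches, 2.43% of the 21770 held a match and no member did. Whether any match binds LXR was not tested. The upstream sequences of Abca1 and Abcg1 are printed because these exporters were low in the same libraries. They are written in the direction of transcription, with the best match in capitals as it stands on that strand. Counted from the start of transcription, the matches lie at positions −62 to −47 in Abca1 (chr4:53159901-53160150, minus strand) and −180 to −165 in Abcg1 (chr17:31276411-31276660, plus strand; 4 mismatches). Read on the other strand, the match in Abca1 is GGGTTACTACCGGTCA.
Abca1: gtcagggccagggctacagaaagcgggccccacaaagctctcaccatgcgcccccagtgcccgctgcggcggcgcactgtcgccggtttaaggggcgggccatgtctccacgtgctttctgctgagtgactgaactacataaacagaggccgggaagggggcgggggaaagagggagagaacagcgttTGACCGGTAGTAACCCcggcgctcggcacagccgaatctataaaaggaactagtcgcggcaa
Abcg1: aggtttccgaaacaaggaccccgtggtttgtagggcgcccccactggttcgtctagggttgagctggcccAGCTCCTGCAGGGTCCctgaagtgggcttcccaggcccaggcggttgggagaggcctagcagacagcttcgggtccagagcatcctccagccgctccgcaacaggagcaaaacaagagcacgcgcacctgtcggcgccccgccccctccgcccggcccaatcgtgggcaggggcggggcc

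Depth was 18830503 to 26203339 counts per library. All 10 endothelial markers averaged at least 1 CPM, and defining markers of microglia (P2ry12, Cx3cr1, C1qa), astrocytes (Gfap, Aqp4), oligodendrocytes (Mog, Mag) and neurons (Rbfox3, Snap25) averaged under 0.1 CPM. Of the other markers of these types, Stmn2 averaged 29.4 to 68.9 CPM per group, Tubb3 2.72 to 16.2 CPM and Aldh1l1 1.59 to 5.55 CPM, and summed neuron markers ranged from 12.5 to 93.4 CPM. Summed fibroblast markers ranged from 4.79 to 202 CPM and summed mural markers from 92.6 to 2493 CPM. Pdcd10 stood at 11.5, 31.2 and 47.0 CPM in the libraries labelled WT 1, WT 2 and WT 3 (CPM, counts scaled to library size with TMM factors, as all CPM values here). It stood at 9.72 to 11.0 CPM in KO, 13.1 to 16.7 CPM in KO+P, 7.83 to 9.53 CPM in KO+R, 32.5 and 60.8 CPM in WT+P and 27.7 and 52.0 CPM in WT+R. Pdcd10 in the library labelled WT 1 was thus inside the range of the KO groups, and the members' differences between KO and WT are also given without it. The propranolol libraries also differed from each other. In WT+P 1 and KO+P 1, 19.6% and 18.7% of tested genes were more than 2-fold from the untreated library of the same genotype and number, against 10.1% in KO+P 2, 5.22% in KO+P 3 and 4.91% in WT+P 2. Libraries with the same number resembled each other across genes, and their differences are given beside the group values.

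Compared per transcript length, in the deposited TPM summed per gene, Apoe was the most abundant member (mean 4004 TPM over the 16 libraries) and Pltp came next (1744 TPM). Apoe exceeded Pltp in 12 of 16 libraries. Nr1h2 (123 TPM) and Scarb1 (85.6 TPM) followed, each below the gene before it in all 16 libraries. Lpcat3 (38.4 TPM), Abcg1 (28.3 TPM) and Abca1 (27.4 TPM) did not keep their order. Lpcat3 exceeded Abcg1 in 10 libraries and Abcg1 exceeded Abca1 in 10. Nr1h3 (9.11 TPM) and Mylip (8.68 TPM) were also not separated, with Nr1h3 higher in 8 of 16. Abca9 was last at 0.706 TPM, with as few as 5 counts in a library. Of the receptors, the mRNA of Nr1h2 was therefore the more abundant in every library.

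The members differed most in how stable they were. Nr1h2 varied 1.49-fold between its lowest and highest library in CPM, Scarb1 1.72-fold and Lpcat3 2.15-fold. Apoe varied 10.3-fold, Abca1 10.8-fold, Pltp 12.4-fold and Abcg1 13.9-fold. Abca9 varied 45.9-fold, at low counts.

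**Figure D1:**
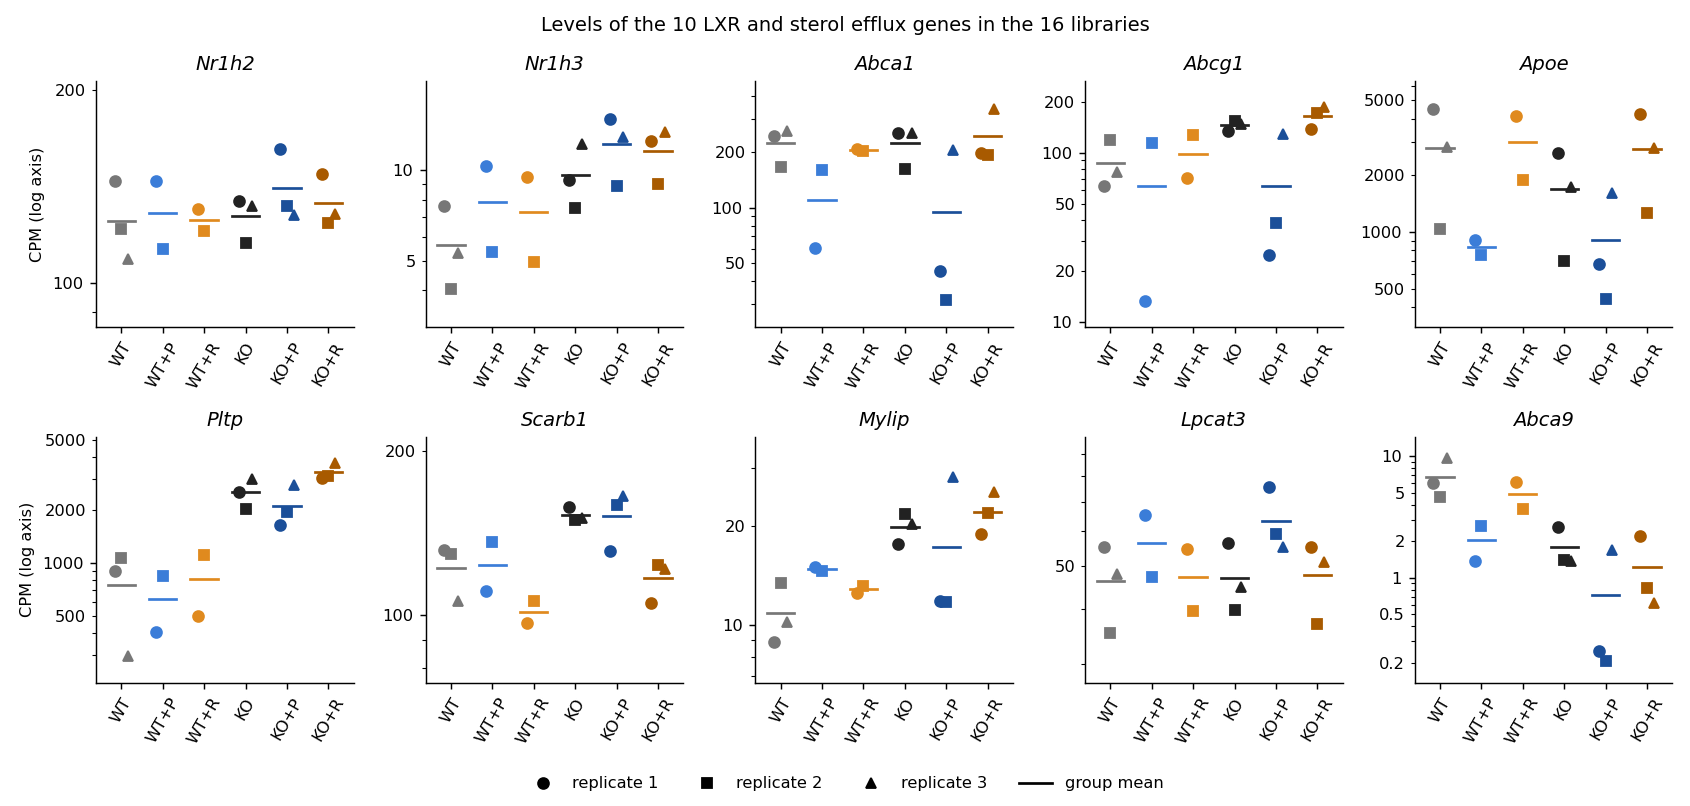
Level of each of the 10 genes in the 16 libraries, in CPM on a log axis; symbols mark the replicate number, bars the group means (n = 3, or 2 for WT+P and WT+R). Pltp stands at 1643 to 3683 CPM in the 9 KO libraries of all treatments and at 296 to 1112 CPM in the 7 WT ones. Abca1 and Abcg1 are lowest in WT+P 1, KO+P 1 and KO+P 2.

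The comparison of KO with WT asked which of these genes differ after loss of Pdcd10. Pltp, Mylip and Nr1h3 were higher in KO and Abca9 was lower, while Abca1 had the same level. None of these differences reached an adjusted p-value under 0.05 (edgeR). Pltp, whose product transfers phospholipids between lipoproteins, stood at 904, 1061 and 296 CPM in WT and at 2521, 2026 and 2997 CPM in KO. All KO libraries lay above all WT libraries, and WT 3 was the lowest. The log2 fold change was 1.74 ± 0.44 (SE, n = 3 and 3; adjusted p = 0.399, edgeR), or 3.34-fold, and 1.89 ± 0.53 without the library labelled WT 1 (adjusted p = 0.503). DESeq2 called Pltp, at an adjusted p of 0.0134, and no other member. The exons of its main transcript share 27.2% of their bases with Ctsa on the other strand, and without strand information reads from both cannot be told apart there.

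Mylip was at 8.83, 13.4 and 10.2 CPM in WT and at 17.7, 21.7 and 20.3 CPM in KO, without overlap. Its log2 fold change was 0.87 ± 0.29 (adjusted p = 0.591, edgeR) and 0.74 ± 0.33 without the library labelled WT 1 (adjusted p = 0.847), and it was higher in KO in all 3 same-numbered pairs. DESeq2 with the replicate block called it (adjusted p = 0.0268). Nr1h3 was at 7.59, 4.03 and 5.33 CPM in WT and at 9.26, 7.51 and 12.3 CPM in KO, where the groups overlapped only through the library labelled WT 1 and KO 2. Its log2 fold change was 0.78 ± 0.35 (adjusted p = 0.795, edgeR) and 1.04 ± 0.38 without the library labelled WT 1 (adjusted p = 0.710). With the replicate number as a block it was 0.80 ± 0.17 (adjusted p = 0.0682, edgeR), the lowest adjusted p of any member in this comparison in that fit, and DESeq2 with the block called it (adjusted p = 0.00392). Nr1h2, the more abundant receptor, was at 109 to 144 CPM in WT and 116 to 134 CPM in KO. With the library labelled WT 1 left out, its log2 fold change was 0.137 ± 0.145.

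Scarb1 was at 132, 129 and 106 CPM in WT and at 158, 149 and 151 CPM in KO, a log2 fold change of 0.32 ± 0.12 (adjusted p = 0.683, edgeR), and the groups did not overlap. Without the library labelled WT 1 it was 0.37 ± 0.14 (adjusted p = 0.738). Abca9, an ABC transporter of the ABCA family, was at 5.98, 4.63 and 9.56 CPM in WT and at 2.63, 1.40 and 1.38 CPM in KO. Its log2 fold change was −1.89 ± 0.70 (adjusted p = 0.639, edgeR), again without overlap and lower in 3 of 3 pairs, and −1.98 without the library labelled WT 1 (adjusted p = 0.762).

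The exporters are given next. Abca1 was at 243, 165 and 260 CPM in WT and at 254, 162 and 253 CPM in KO, so that every KO library was close to its same-numbered WT library. With the library labelled WT 1 left out, its log2 fold change was 0.06 ± 0.66. Abcg1 was at 63.1, 119 and 76.7 CPM in WT and at 134, 153 and 148 CPM in KO. It was higher in KO in all 3 pairs, without overlap, although its spread over all libraries was wide and its unadjusted p was above 0.05. Without the library labelled WT 1 its log2 fold change was 0.56 ± 0.75. Apoe was at 4514, 1033 and 2814 CPM in WT and at 2641, 702 and 1744 CPM in KO. It was lower in KO in 3 of 3 pairs, by 0.56 to 0.77 on the log2 scale, while levels within each genotype varied over 3-fold between numbers. Without the library labelled WT 1 its fitted log2 fold change was −0.19 ± 0.69. Lpcat3 was at 35.3 to 55.3 CPM in WT and 39.8 to 56.3 CPM in KO, and its log2 fold change was 0.165 ± 0.246 without the library labelled WT 1.

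In counts, 0 of 10 members were called between KO and WT at the thresholds used throughout, an adjusted p of less than 0.05 with more than a 1.5-fold difference (edgeR), beside 1 of 14838 genes (0.00674%). With the replicate block 0 members were called, beside 0.182% of genes, and without the library labelled WT 1 again 0, beside 0% of genes, although 851 genes then had an unadjusted p under 0.05. DESeq2 called 1 member beside 0.478% of the genes it tested, and with the block 3 (Pltp, Mylip and Nr1h3) beside 2.67%. At an unadjusted p under 0.05, 5 of 10 members passed (Pltp, Mylip, Abca9, Scarb1 and Nr1h3), beside 6.07% of genes. Groups did not overlap for 5 of 10 (Pltp, Mylip, Abca9, Scarb1 and Abcg1), beside 13.2% of genes. The members were chosen with earlier results of these data known, so these counts are not a test of the set. Endothelial markers summed to 11330 to 12470 CPM in KO and 11000 to 14260 CPM in WT, mural markers to 92.6 to 229 and 109 to 847 CPM, and fibroblast markers to 12.0 to 150 and 20.4 to 98.7 CPM. The mural markers did not all go the same way. Tagln averaged 97.1 CPM in KO and 288 in WT and Acta2 34.4 and 88.0 CPM, while Anpep averaged 36.4 and 9.00 CPM. The part of these markers in the differences was not tested.

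The other genes of the pathway were taken from lists chosen by function. Among 11 other LXR targets tested, 9 had higher fitted values in KO (median log2 fold change 0.48, all genes −0.01) and 0 were called by edgeR, with or without the block, where Fasn passed the adjusted p (0.0473) but not the fold. The smallest p-values belonged to Apod, an apolipoprotein of glia and vessels (230 CPM in WT, 960 CPM in KO, means; log2 fold change 2.06 ± 0.71, adjusted p = 0.605, edgeR), Scd2, a fatty acid desaturase (1.19 ± 0.42, adjusted p = 0.610), and Fasn, fatty acid synthase (0.52 ± 0.22, adjusted p = 0.775). Among 13 LXR partners and cofactors, Ncoa3, a coactivator, had the smallest p (0.71 ± 0.18, adjusted p = 0.390). DESeq2 called Ncoa3 with and without the block. Of 18 genes of sterol uptake, storage and transport, the very low-density lipoprotein receptor Vldlr had the smallest p (−1.05 ± 0.32, adjusted p = 0.508, edgeR). DESeq2 with the block also called Apod, Scd2 and Vldlr. All 20 cholesterol synthesis genes had higher fitted values in KO, with a median log2 fold change of 0.28 and 0 calls by edgeR. By pair, 20, 19 and 11 of 20 were higher in KO 1, KO 2 and KO 3, with a median of 0.015 in the last pair.

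**Figure D2:**
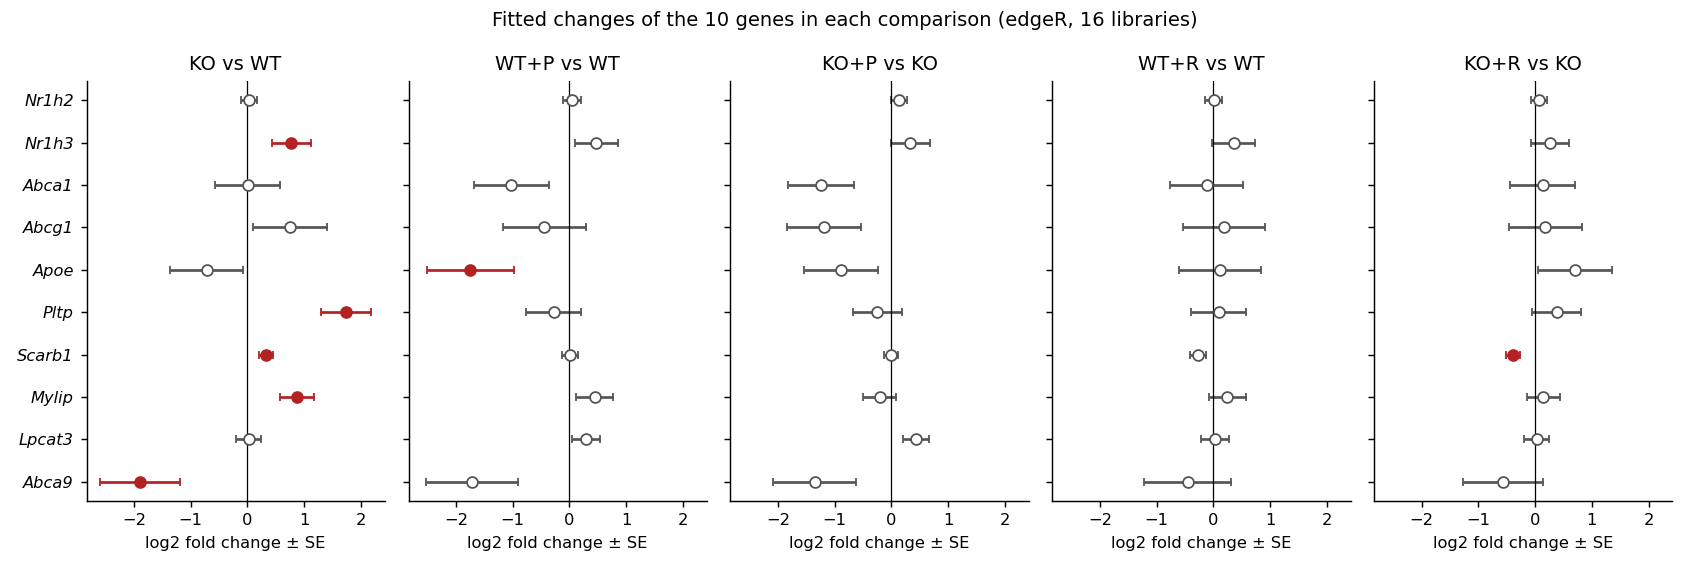
Fitted log2 fold change ± SE of the 10 genes in the 5 comparisons (edgeR, all 16 libraries in 1 fit); filled red points have an unadjusted p under 0.05, and no gene is called after adjustment. The red points are 5 genes in KO vs WT, Apoe in WT+P vs WT and Scarb1 in KO+R vs KO.

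Propranolol was compared with no drug within each genotype. Abca1, Abcg1 and Apoe were lower with propranolol in all 5 same-numbered pairs, but by very unequal amounts. WT+P 1 was paired with the library labelled WT 1, whose Pdcd10 was inside the range of the KO groups. Without that library the fitted log2 fold change in WT was −0.96 ± 0.73 for Abca1 and −0.63 ± 0.815 for Abcg1. With all libraries, edgeR called none of the members in either genotype. Abca1 was at 60.3 and 159 CPM in WT+P and at 45.7, 31.8 and 205 CPM in KO+P, against 165 to 260 CPM in WT and 162 to 254 CPM in KO. Against the untreated library of the same number, it was lower by 2.01 on the log2 scale in WT+P 1, 2.48 in KO+P 1 and 2.35 in KO+P 2, but by only 0.05 in WT+P 2 and 0.30 in KO+P 3. Abcg1 was at 13.4 and 114 CPM in WT+P and at 24.98, 38.6 and 128 CPM in KO+P. The same libraries were low, by 2.23, 2.42 and 1.99 on the log2 scale, and WT+P 2 and KO+P 3 were within 0.07 and 0.21 of their untreated libraries.

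In KO cells the fitted log2 fold change of Abca1 was −1.25 ± 0.58 (n = 3 and 3; adjusted p = 0.395, edgeR) and with the replicate block −1.59 ± 0.48 (adjusted p = 0.102). Without KO+P 3 it was −2.52 ± 0.43 and was called (adjusted p = 0.0208, edgeR), together with Abca9 (−2.95 ± 0.67, adjusted p = 0.0437). That made 2 of 10 members called, beside 2.24% of genes. KO+P 3 held the highest Abca1, Abcg1, Apoe and Abca9 of the KO+P libraries (205, 128, 1622 and 1.70 CPM). Leaving it out thus removed the values nearest to KO, and these calls are no separate support for a fall. For Abcg1 the log2 fold change was −1.19 ± 0.66 (adjusted p = 0.461), with the block −1.42 ± 0.55 (adjusted p = 0.155) and without KO+P 3 −2.19 ± 0.66 (adjusted p = 0.0916). In WT cells without WT+P 2, which leaves 1 library assumed to vary like the other groups, Abcg1 was at −2.69 ± 0.81 (adjusted p = 0.0870) and 0 members were called beside 3.54% of genes.

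Apoe was at 903 and 760 CPM in WT+P and at 679, 440 and 1622 CPM in KO+P, against 1033 to 4514 CPM in WT and 702 to 2641 CPM in KO. The WT+P libraries lay below all WT libraries, and the log2 fold change was −1.75 ± 0.77 (adjusted p = 0.490, edgeR) and −1.22 ± 0.77 without the library labelled WT 1. In KO the groups overlapped (−0.89 ± 0.65, adjusted p = 0.576, edgeR), and without KO+P 3 the log2 fold change was −1.60 ± 0.70 (adjusted p = 0.221).

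Lpcat3 was slightly higher with propranolol in both genotypes. It stood at 65.5 and 47.2 CPM in WT+P and at 75.8, 59.2 and 55.3 CPM in KO+P, higher than the same-numbered untreated library in 5 of 5 pairs, by 0.24 to 0.57 on the log2 scale. In KO its log2 fold change was 0.43 ± 0.22 (adjusted p = 0.429, edgeR), and 0.44 ± 0.10 with the block (adjusted p = 0.0719). In WT it was 0.29 ± 0.25 (adjusted p = 0.737). Its main transcript shares 44.5% of its exonic bases with Emg1, Gm67018 and Gm67822, so part of its reads could come from these. Nr1h3 was also higher in 5 of 5 pairs, by 0.07 to 0.67. In WT its log2 fold change was 0.48 ± 0.38 (adjusted p = 0.716, edgeR), and it turned to −0.074 without WT+P 1.

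Mylip lay on different sides of the untreated libraries. It was at 15.0 and 14.6 CPM in WT+P, above the 8.83 to 13.4 CPM of WT, and at 11.8, 11.7 and 28.2 CPM in KO+P, on both sides of the 17.7 to 21.7 CPM of KO. The difference of its propranolol responses, KO minus WT, was −0.66 ± 0.43 on the log2 scale (adjusted p = 1.00, edgeR). Pltp was at 407 and 838 CPM in WT+P and at 1643, 1942 and 2773 CPM in KO+P, lower than the same-numbered untreated library in 5 of 5 pairs, by 0.06 to 1.15. Nr1h2 and Scarb1 stayed at 113 to 162 CPM and 111 to 166 CPM. Abca9 was at 1.39 and 2.68 CPM in WT+P, below WT, and at 0.250, 0.208 and 1.70 CPM in KO+P.

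**Figure D3:**
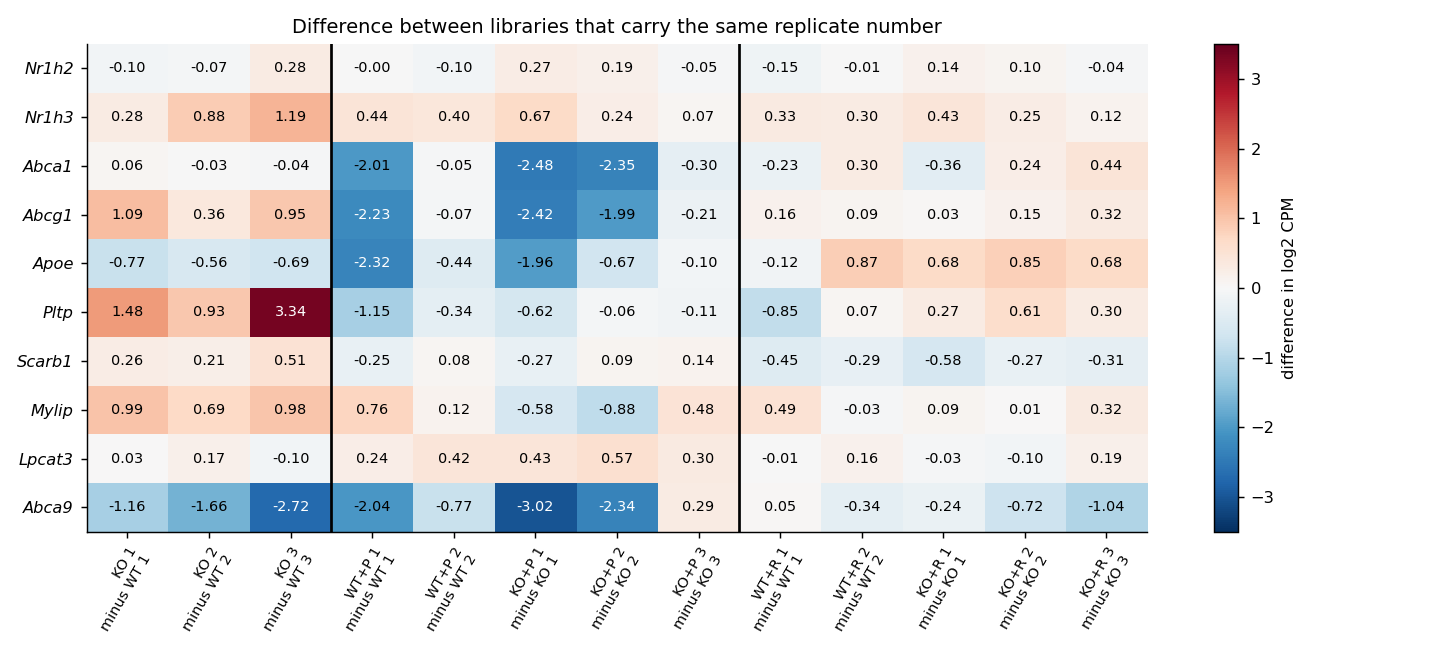
Difference in log2 CPM between libraries with the same replicate number for the 10 genes; the 3 blocks show KO minus WT, propranolol minus untreated and rapamycin minus untreated. Abca1 and Abcg1 are near −2 or lower in WT+P 1, KO+P 1 and KO+P 2 and at −0.05 to −0.30 in WT+P 2 and KO+P 3; Pltp reaches 3.34 in KO 3 minus WT 3.

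In counts, 0 of 10 members were called with propranolol in WT and 0 in KO (edgeR), beside 0.00674% of genes in each, and DESeq2 called 0 and 0, beside 0.835% and 1.08% of the genes it tested. With the replicate block edgeR called 0 in KO, beside 0.142%, and DESeq2 called 1 (Abca1, adjusted p = 0.0294), beside 7.12%. At an unadjusted p under 0.05, 1 member passed in WT (Apoe) beside 9.87% of genes, and 0 in KO beside 12.6%. Groups did not overlap for 4 members in WT (Abca1, Apoe, Mylip and Abca9) beside 21.2% of genes, and for Abcg1 alone in KO beside 18.7%.

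Other genes were also low in the libraries with low Abca1 and Abcg1. Summed endothelial markers were at 6729 and 10550 CPM in WT+P and 7201 to 10720 CPM in KO+P, below every WT and KO library. Kdr, the VEGF receptor of endothelial cells, stood at 53.2 CPM in WT+P 1, 59.2 in KO+P 1 and 83.4 in KO+P 2, against 197 in WT+P 2 and 300 CPM in KO+P 3. The endothelial markers as a set did not follow Kdr in every library. Their median log2 difference from the same-numbered untreated library was −1.14 in WT+P 1, −0.84 in KO+P 1 and −0.31 in KO+P 2. It was −0.13 in WT+P 2 and −0.25 in KO+P 3, so KO+P 2 lay near KO+P 3. The part of these in the low values of Abca1 and Abcg1 was not tested, and in bulk RNA fewer cells of a type and less RNA per cell cannot be told apart. Ch25h, the enzyme that makes the LXR ligand 25-hydroxycholesterol, was higher than in the untreated library of the same number in 5 of 5 pairs, by 2.07, 0.18, 1.57, 0.86 and 0.16 on the log2 scale in the order WT+P 1, WT+P 2, KO+P 1, KO+P 2 and KO+P 3. Its fitted log2 fold change was 1.32 ± 0.46 in WT (adjusted p = 0.447, edgeR) and 0.93 ± 0.42 in KO (adjusted p = 0.391), and 50.3% of its exonic bases overlap Gm26902 on the other strand.

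The cholesterol synthesis genes were higher in all 5 propranolol libraries, including WT+P 2 and KO+P 3. Their median difference from the same-numbered untreated library was 1.17, 0.97, 0.84, 1.11 and 0.93 on the log2 scale, in the same order, and 19 or 20 of the 20 genes were higher in each. In KO, 0 of 20 were called by edgeR without the block, though 18 had an unadjusted p under 0.05, and DESeq2 called 14; without KO+P 3 edgeR called 13. With the replicate block, 12 of 20 rose (adjusted p under 0.05, edgeR), among them Cyp51, Mvd, Fdft1, Sqle, Srebf2, Pmvk, Msmo1, Lss, Insig1, Fdps and Hmgcs1. Insig1, a sterol sensor that holds back SREBP, had the largest of these changes (2.21 ± 0.29, adjusted p = 0.0138), from 46.7 to 91.1 CPM in KO to 210 to 399 CPM in KO+P. Fasn also rose in that fit (0.65 ± 0.09, adjusted p = 0.0158). In the same comparison 0 of 13 partners and cofactors, 0 of 5 oxysterol enzymes and 0 of 18 uptake, storage and transport genes were called with the block. Most genes on the list of other LXR targets, which holds none of the members, were not lower with propranolol. Among the members, Apoe and Pltp were lower in 5 of 5 pairs, as Abca1 and Abcg1 were. The list includes the fatty acid genes Scd2 and Fasn. Of the 11 tested on the list, 8 had higher fitted values in WT and 7 in KO (edgeR without the block, 0 called). Their median difference from the same-numbered untreated library was 1.03, 0.35, 0.71, 0.31 and 0.40 on the log2 scale, in the order used above.

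**Figure D4:**
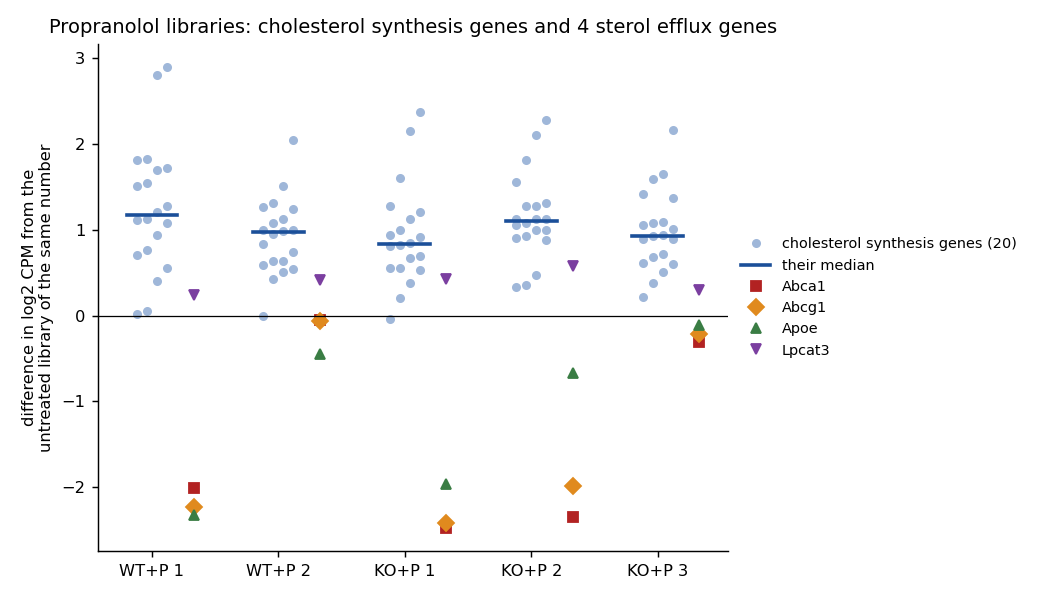
Difference in log2 CPM of each propranolol library from the untreated library of the same genotype and number, for the 20 cholesterol synthesis genes (light points, bar at their median) and 4 sterol efflux genes. The medians lie between 0.84 and 1.17 in all 5 libraries, whereas Abca1 and Abcg1 are near −2 or lower in 3 of them and at −0.05 to −0.30 in WT+P 2 and KO+P 3.

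With rapamycin, Scarb1 was lower in every pair, while Abca1, Abcg1, Mylip and Lpcat3 lay within 0.50 on the log2 scale of the untreated library of the same number. Scarb1 was at 96.5 and 106 CPM in WT+R and at 105, 124 and 121 CPM in KO+R, against 106 to 132 CPM in WT and 149 to 158 CPM in KO. It was lower in 5 of 5 same-numbered pairs, by 0.27 to 0.58 on the log2 scale. WT+R 1 was paired with the library labelled WT 1. With that library left out, the fitted log2 fold change of Scarb1 in WT was −0.22 ± 0.15. In KO the groups did not overlap and the log2 fold change was −0.39 ± 0.12 (n = 3 and 3; adjusted p = 0.179, edgeR), or −0.39 ± 0.11 with the block (adjusted p = 0.0618).

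Abca1 was at 208 and 203 CPM in WT+R and at 198, 192 and 343 CPM in KO+R, and Abcg1 at 70.5 and 127 CPM and at 138, 171 and 185 CPM. Abcg1 was above its untreated library in 5 of 5 pairs, but by only 0.03 to 0.32 on the log2 scale. Apoe was at 4155 and 1884 CPM in WT+R and at 4219, 1262 and 2788 CPM in KO+R. It was higher than the same-numbered KO library in 3 of 3 pairs, by 0.68 to 0.85, and in 1 of 2 pairs in WT. Pltp was at 501 and 1112 CPM in WT+R, overlapping the 296 to 1061 CPM of WT, and at 3048, 3100 and 3683 CPM in KO+R, above all KO libraries. Mylip was at 12.5 and 13.2 CPM in WT+R and at 18.9, 21.8 and 25.3 CPM in KO+R. Nr1h3 was at 9.53 and 4.98 CPM in WT+R and at 12.5, 8.98 and 13.4 CPM in KO+R, higher in 5 of 5 pairs by 0.12 to 0.43. Nr1h2 stood at 121 to 148 CPM and Lpcat3 at 37.0 to 55.2 CPM over the 5 rapamycin libraries. Abca9 was at 6.18 and 3.65 CPM in WT+R and at 2.22, 0.820 and 0.624 CPM in KO+R.

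With rapamycin 0 of 10 members were called in WT, beside 1.4% of genes, and 0 in KO, beside 1.51% (edgeR). With the block 0 were called in KO, beside 4.98%, and DESeq2 called 0 in each, beside 3.64% in WT and 3.11% in KO. At an unadjusted p under 0.05, 0 members passed in WT beside 12.6% of genes and 1 in KO (Scarb1) beside 12.5%. Groups were without overlap for 0 members in WT, beside 28.6% of genes, and for 2 in KO (Scarb1 and Pltp), beside 24.1%. These shares are no higher than those of all genes.

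Other genes of the pathway changed with rapamycin. Vldlr fell from 63.4 ± 24.2 CPM in WT to 16.1 ± 4.28 in WT+R (SD; −1.98 ± 0.39 on the log2 scale, adjusted p = 0.0254, edgeR) and from 30.7 ± 9.80 CPM in KO to 10.9 ± 1.44 in KO+R (−1.49 ± 0.33, adjusted p = 0.0402). Dhcr7, the last enzyme of one branch of cholesterol synthesis, fell in WT (−1.06 ± 0.14, adjusted p = 0.00507) and in KO (−0.73 ± 0.12, adjusted p = 0.0126). Abca8b, a relative of Abca9, fell in WT (−2.15 ± 0.31, adjusted p = 0.00740) and in KO (−1.37 ± 0.26, adjusted p = 0.0233). Abca4 fell in WT (−2.30 ± 0.30, adjusted p = 0.00507), and Stard4, a cholesterol carrier, in KO (−0.73 ± 0.17, adjusted p = 0.0459). Without the block, 0 of 11 other LXR targets were called in either genotype. With it, Scd2 (−1.37 ± 0.30, adjusted p = 0.0189), Gramd1b (−1.24 ± 0.27, adjusted p = 0.0176) and Arl4c (−1.11 ± 0.28, adjusted p = 0.0377) fell in KO, as did the synthesis enzymes Sqle, Hsd17b7 and Idi1. The calls without the block depended on single libraries. In WT the call of Vldlr was lost without WT 1, WT 3, WT+R 1 or WT+R 2, those of Dhcr7, Abca4 and Abca8b without WT+R 1, and that of Abca8b also without WT+R 2. In KO, leaving out any library left 0 or 1 of the 2 called uptake genes, and leaving out KO 1, KO+R 1 or KO+R 3 left 0 calls in all 6 lists. Ch25h, at 51.1 ± 24.6 CPM (SD) in WT, was at 21.3 ± 13.6 in WT+R, and its KO and KO+R means were 83.2 and 42.8 CPM (adjusted p = 0.283 and 0.368, edgeR). Summed mural markers were higher with the drug as well, from 109 to 847 CPM in WT to 1467 to 2493 CPM in WT+R and from 92.6 to 229 CPM in KO to 308 to 464 CPM in KO+R. Most of these sums came from Acta2 (means 88.0 CPM in WT, 587.5 in WT+R) and Tagln (288 and 1379 CPM). Anpep and Notch3, on the same list, averaged lower with rapamycin. Anpep went from 9.00 to 3.38 CPM in WT and from 36.4 to 20.9 CPM in KO, and Notch3 from 2.58 to 1.15 and from 3.31 to 1.30 CPM. Summed endothelial markers were at 9635 to 10370 CPM in WT+R, below every WT library, and at 10720 to 11850 CPM in KO+R, overlapping KO. Their part in these changes was not tested.

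The difference between genotypes in each drug's effect was tested last. For the propranolol and rapamycin interactions 0 of 10 members had an adjusted p under 0.05 (edgeR), beside 0% of genes for both, and DESeq2 called 0 members, beside 0% and 0.00368%. At an unadjusted p under 0.05, 0 members passed in either, beside 0.721% and 0.762% of genes.

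The genes most like Abca1 and Abcg1 across the 16 libraries were listed, after removal of the mean of each replicate number from log2 CPM, among the 12410 genes averaging 1 CPM or more. For Abca1 they were Jak2, a cytokine receptor kinase (Pearson r = 0.978), Cxxc4, a Wnt pathway inhibitor (0.972), Gm7694 (0.964), Tnfsf10, the death ligand TRAIL (0.960), and Dusp6, a phosphatase of ERK (0.958). For Abcg1 they were Tfdp2, a partner of E2F (0.956), Exoc3l2 (0.952), Glrx, glutaredoxin (0.950), Mfng, a modifier of Notch (0.947), and Eid1 (0.946). None of them is on the lists of LXR targets or partners used here. The points share libraries and treatments, among them the 3 propranolol libraries with low Abca1.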

How the data were processed

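RNA-seq of 16 libraries was analysed. Per the labels, reads were processed on GRCm39 with Trim Galore 0.6.7, HTSeq 0.13.5, DESeq2 1.34.0, R 4.2.2 and Salmon 1.5.2, and the paper's methods name STAR. The authors deposited expected counts, TPM values and effective lengths per transcript. The deposited expected counts were summed per gene (139544 of 140789 transcripts named in GENCODE M39), rounded, filtered with filterByExpr and fitted in 1 edgeR 4.0.16 quasi-likelihood model with TMM factors (R 4.3.3; 10 residual degrees of freedom). The call rule was a p of less than 0.05 after Benjamini-Hochberg adjustment with more than a 1.5-fold difference, without the fold for interactions. DESeq2 1.42.0, a replicate block and the other alternatives are given at the end. The levels in TPM deposited by the authors served only to compare genes, and the deposited effective lengths only as an offset. Log2 CPM used a prior count of 2. The biological coefficient of variation was 32.3%, or 19% with the block, and Abca9 had as few as 5 counts in a library.

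Members and lists were chosen with earlier results of these data known. All members are named. Their fold changes are printed where the unadjusted p was under 0.05 in the fit without or with the block, or where a library in doubt was left out. Other genes are named where called, where among the 3 with the smallest p of their list, or as the 5 genes most like Abca1 and Abcg1. Kdr and Ch25h in all libraries were singled out after their values were seen. Same-numbered libraries correlated in their deviations from the group means (KO and WT 0.189 to 0.619, KO+P and KO 0.306 to 0.581, KO+R and KO 0.414 to 0.62), so the number was taken as a pairing there. The pairing comes from the values, not the labels. Some genes and sequences are not reported here. Scripts were tested on simulated data.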

Additional observations from a re-analysis of the deposited data

How the results depend on the processing

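With the replicate block, edgeR called 0 members in each of the 5 comparisons and both interactions, as without it. It moved calls in the lists: in WT+P vs WT, where 2 pairs share a number, 7 cholesterol synthesis genes and Fasn were called with the block and 0 without, and in WT+R vs WT it added Scd2, Gramd1b, Idi1 and Abca5. The difference between genotypes in the response of Mylip to propranolol was −0.86 with the block (adjusted p = 1.00, edgeR). Between KO and WT, DESeq2 called 1 member (Pltp), and DESeq2 with the replicate block called 3 (Nr1h3, adjusted p = 0.00392; Mylip, 0.0268; Pltp, 0.0297), beside 2.67% of genes. In KO+P vs KO, DESeq2 with the replicate block called 1 member (Abca1, −1.60, adjusted p = 0.0294), beside 7.12% of genes. Leaving out each library in turn gave 0 to 2 called members in KO+P vs KO, the highest without KO+P 3, and 0 in every other comparison. Nr1h3 in WT+P vs WT ranged from −0.074 without WT+P 1, where 1 library stood for the group, to 0.88 without WT+P 2. The remaining directions held: of 112 fold changes under other settings 107 kept both direction and side of the threshold and 5 became called, and of 86 with a library left out 84 did. Size factors of DESeq2, no filter on low counts, effective lengths as an offset, fits of only the groups compared, and the block without the library labelled WT 1 called 0 members. The cause of the differences between tools was not tested. In KO+P vs KO the SE of the log2 fold change was 0.58 for Abca1, 0.66 for Abcg1 and 0.65 for Apoe.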
